A study of Mus musculus with 3 samples.

Results

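FLI1 and RUNX1 occupancy was examined at 10 genes that encode alpha- and beta-tubulins, 6 of them beta (Tubb1, Tubb2a, Tubb2b, Tubb3, Tubb5 and Tubb6) and 4 alpha (Tuba1a, Tuba1c, Tuba4a and Tuba8). The genes were taken by name from the 22367 protein-coding genes of the GENCODE M1 annotation on mouse genome build mm9, and all 10 were found. Reads were counted in a start window, which reaches 2 kb to either side of the transcription start site (TSS, the 5′ end of the gene record), and in a territory, which is the gene body with 20 kb on either side, cut into bins of 400 bp. Every member had enough input reads in its start window (at least 5) to be compared, as had 21575 of all protein-coding genes.

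Alpha- and beta-tubulin pair into heterodimers that polymerize into microtubules, and the isoforms differ chiefly in their tails and in the cells that use them. Megakaryocytes (MK), the large polyploid cells that release platelets, push out long proplatelets on bundles of microtubules, and each platelet keeps a coiled microtubule band under its membrane. Tubb1 encodes the beta isoform found almost exclusively in MK and platelets. FLI1 is an ETS-family transcription factor that binds sequences with a GGAA core, and RUNX1 is a Runt-family factor that binds TGTGGT and TGCGGT; both are needed for MK to mature.

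The study sequenced chromatin of large, terminally mature MK obtained by culturing fetal liver cells of CD1 mice with thrombopoietin for 5 days. All 3 libraries come from wild-type cells of this one stage and strain: one of DNA precipitated with an antibody against FLI1, one with an antibody against RUNX1, and one of input DNA that was not precipitated. The labels give livers of embryonic day 15, whereas the methods give the day before. Lineages were removed with TER119, GR1 and CD11b antibodies and MK were sedimented through albumin gradients, and the reads of any other cells that remained cannot be told apart from those of MK.

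The DNA of each library was pooled from at least 3 replicates, so each antibody has 1 sample, there is no replicate check, and no test between libraries was made. The intervals below are exact 95% intervals (conditional binomial for a fold, Clopper-Pearson bounds of the underlying share) and cover counting error only. The files held 62946422 FLI1, 3973856 RUNX1 and 21745220 input reads without chromosome M and counting each input position once. A supplement of the study lists many more uniquely mapped RUNX1 tags, and more FLI1 tags, than these files hold, so the RUNX1 values rest on fewer reads than the study counted. A start window held a median of 133 FLI1, 8 RUNX1 and 39 input reads over all genes, so RUNX1 values are much less precise. Expression was not measured in these libraries, and the cell type could be checked only through occupancy. The MK genes Pf4, Itga2b, Gp9 and Gp1ba, but not Vwf, and 0 of 8 genes of other cells had a FLI1-high bin, as defined below, in the start window. Of all protein-coding genes, 25.9% had such a bin.

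Tubb1, Tuba1a, Tuba1c and Tuba8 carried FLI1 at positions that differ in place and sequence, and the windows around those positions are printed for that reason. Each window is taken around the position that most FLI1 fragments covered, the summit, and reads 5′ to 3′ on the strand of the gene, with the mm9 sequence in lower case. Capitals mark GGAA cores (TTCC on the other strand) and, where present, the RUNX sequences. Windows in untranslated exons are cut to 29 bases around an ETS sequence near the summit, and the Tuba1c and Tuba8 exon windows do not contain the summit itself, which lies just upstream of them. The Tubb1 and Tubb2a start windows end where the RefSeq transcript begins, which for Tubb1 is 100 bp before the TSS used here. Tubb2a is shown as a start with a FLI1 fold of 0.946 over its 2-kb window, while the bins of 400 bp before and after its TSS had ratios of FLI1 to input of 1.90 (0.786 to 5.55) and 3.22 (0.996 to 16.6).
Tubb1 first intron, chr2:174279324-174279424, plus strand: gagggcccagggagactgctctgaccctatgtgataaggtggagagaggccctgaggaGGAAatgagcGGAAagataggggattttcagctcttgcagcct
Tubb1 start, chr2:174276005-174276095, plus strand: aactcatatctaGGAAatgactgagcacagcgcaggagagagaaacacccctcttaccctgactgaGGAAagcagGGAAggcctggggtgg
Tubb2a start, chr13:34169878-34169962, minus strand: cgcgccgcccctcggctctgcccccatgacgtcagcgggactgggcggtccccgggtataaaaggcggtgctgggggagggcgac
Tuba1a start, chr15:98784027-98784127, minus strand: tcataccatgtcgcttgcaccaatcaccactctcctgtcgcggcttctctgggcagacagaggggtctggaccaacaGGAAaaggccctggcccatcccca
Tuba1c first exon, chr15:98860477-98860505, plus strand: cctgggactttcTTCCggccagagctcca
Tuba1c first intron, chr15:98861542-98861642, plus strand: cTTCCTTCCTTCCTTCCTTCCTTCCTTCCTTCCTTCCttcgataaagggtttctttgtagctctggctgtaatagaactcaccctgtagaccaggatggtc
Tuba8 start, chr6:121160528-121160628, plus strand: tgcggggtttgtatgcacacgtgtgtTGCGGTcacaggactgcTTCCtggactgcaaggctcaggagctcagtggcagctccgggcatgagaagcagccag
Tuba8 first intron, chr6:121165132-121165232, plus strand: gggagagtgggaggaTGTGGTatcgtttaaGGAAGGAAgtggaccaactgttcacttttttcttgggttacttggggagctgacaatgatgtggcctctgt
Tuba8 last exon, chr6:121176296-121176324, plus strand: gtcccagcctacTTCCtgtcctacataga

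At the start windows, FLI1 reached a fold of 2 over input at 2 of the 10 tubulin genes, Tuba1c and Tubb5, against 25.5% of all protein-coding genes tested. The fold is the FLI1 count divided by the input count in the same window, each scaled to the depth of its library as RPM. Its median over the 10 members was 1.64, beside 1.28 over all genes, and the median was 1.36 for the 6 beta members and 1.93 for the 4 alpha members. The interval of the fold lay wholly above 1 for 7 members and wholly below 1 for 1, Tubb2b, as it did for 42% and 11.5% of all genes. At a limit of 1.5 the count for FLI1 was 7 of 10, against 40.4% of all genes, and at a limit of 3 it was 1 of 10, against 9.3%. RUNX1 reached a fold of 2 at 0 of 10 members, against 16.8% of all genes, with a median of 1.38 beside 1.18 over all genes. It reached 1.5 at 3 of 10 (33.8% of all genes) and 3 at 0 of 10 (4.13% of all genes). No member had a fold of 0.5 or less, as 3.25% of genes had for FLI1 and 10.5% for RUNX1.

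**Figure D1:**
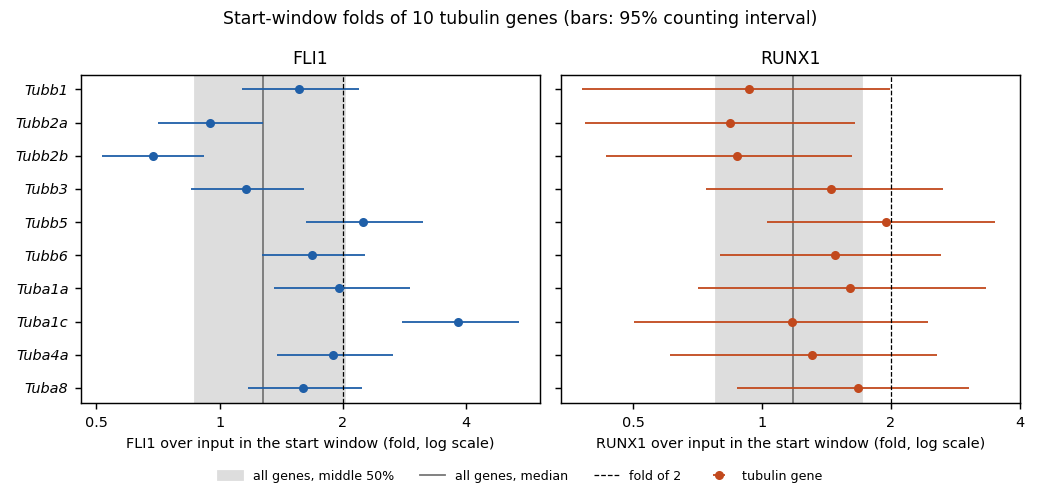
Fold of FLI1 (left) and RUNX1 (right) over input in the window of 2 kb on either side of the start, on a log scale, for each tubulin gene, with 95% counting intervals as bars. The grey band and line give the middle 50% and the median of all genes tested, and the dashed line marks a fold of 2. Only the Tuba1c and Tubb5 points pass that line for FLI1, and no point passes it for RUNX1.

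Among the beta isoforms, Tubb1 (chr2:174276196-174283383, plus strand) had 212 FLI1, 8 RUNX1 and 47 input reads in its start window. Scaled to depth these are 3.37 RPM for FLI1, 2.01 RPM for RUNX1 and 2.16 RPM for input. The FLI1 fold was 1.56 (1.13 to 2.19), higher than at 61.6% of all genes tested, and the RUNX1 fold was 0.931 (0.380 to 1.99). FLI1 reads were gathered in the bin just upstream of the Tubb1 TSS, which held 87 of the 212, while the bin just downstream held 25 and the other 8 held 9 to 24 each. The upstream bin also had 10 input reads and so a fold of 3.01, and it was not counted as FLI1-high, a term for bins with at least 4 times the expected FLI1 reads and at least 20 reads. The expected number is the highest of the genome-wide rate, the scaled input of the bin and the scaled mean input of 5 bins. The most covered position lay 141 bp upstream of the Tubb1 TSS, and its printed window holds 3 GGAA cores.

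A second FLI1 position belonged to Tubb1 by distance. In the first intron, 3178 bp downstream of the TSS (chr2:174279374), the bin held 90 FLI1, 2 RUNX1 and 5 input reads, a fold of 6.22. Within 200 bp of this position there were 70 FLI1 reads on the plus strand and 64 on the minus strand. The intron window holds a pair of GGAA cores and none of the 4 longer ETS sequences searched (CAGGAAA as well as CAGGAAG with an A in front of the core, and likewise CCGGAAA as well as CCGGAAG with a C there, on both strands). Tubb1 was thus FLI1-high inside the gene and not at its start. The only other FLI1-high bin of the Tubb1 territory lay 13479 bp downstream of the TSS, 69 bp before the start of Atp5e, which encodes a subunit of the mitochondrial ATP synthase, with 92 FLI1 and 6 input reads.

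Tubb2a and Tubb2b, neighbours on chromosome 13 that are best known from neurons, had the lowest FLI1 folds in the start window of 2 kb. A supplement of the study lists both, as well as Tubb3 and Tuba8, among the genes whose transcripts rose as MK matured. It places the nearest FLI1 binding site of Tubb2a within a few bases of its start and that of Tuba8 within the start window used here. It places those of Tubb2b and Tubb3 much farther away. Tubb2a (chr13:34166170-34169877, minus strand) had 178 FLI1, 10 RUNX1 and 65 input reads, and its FLI1 fold was 0.946 (0.708 to 1.28). Tubb2b (chr13:34218877-34222223, minus strand) had 149 FLI1, 12 RUNX1 and 75 input reads, and its FLI1 fold was 0.686 (0.517 to 0.918), higher than at 12.1% of genes. In both, FLI1 reads alone were above the all-gene median of 133, and the input was unusually high, above 97.05% of genes at Tubb2a and 99.4% at Tubb2b. An alternative chosen after seeing the data took the input rate of the whole territory in place of that of the start window. With it the FLI1 fold of Tubb6 rose from 1.68 to 2.10, and that of Tuba1a fell from 1.96 to 1.63. The folds were then 1.24 at Tubb2a and 1.12 at Tubb2b, without intervals. Over other regions of Tubb2b the FLI1 fold was 0.538 (0.362 to 0.809) for the gene body and 0.890 (0.802 to 0.989) for the territory. It was 1.02 (0.880 to 1.19) for the 20 kb downstream. The cause of the low value in the start window was not tested. Neither territory had a FLI1-high or RUNX1-high bin, and the highest bin fold was 1.90 at Tubb2a and 1.93 at Tubb2b. The bins before and after the Tubb2a TSS held 33 and 28 FLI1 reads, the most of its start window, and the printed window there holds no GGAA core.

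Tubb3, the isoform used as a marker of neurons (chr8:125935324-125945915, plus strand), had 178 FLI1, 14 RUNX1 and 53 input reads. Its FLI1 fold was 1.16 (0.849 to 1.61). Of these FLI1 reads, 43 and 47 fell in the pair of bins farthest upstream, 2000 to 1200 bp before the TSS where the most covered position was in an untranslated part of Mc1r, the melanocortin receptor gene that precedes Tubb3. The bins on either side of the Tubb3 TSS held 14 and 5. The FLI1 fold over the whole gene body was 0.742 (0.593 to 0.933) (24.0% of genes had a lower one), and the territory had no high bin for either factor.

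Tubb5, a beta isoform made in most cells (chr17:35970871-35975251, minus strand), had 291 FLI1, 16 RUNX1 and 45 input reads. Both folds were the highest of the beta members, 2.23 (1.63 to 3.13) for FLI1 and 1.95 (1.03 to 3.51) for RUNX1, and the RUNX1 interval was the only one of the 10 that lay wholly above 1, as it did for 15% of all genes, while none lay wholly below 1, as for 2.76%. That lower bound of 1.03 was close to 1, and with scaling to background bins the Tubb5 RUNX1 fold was 1.69. FLI1 reads were spread over the start rather than gathered, with 28 to 48 reads in each of the 5 bins from 400 bp upstream to 1600 bp downstream of the TSS. The best of these bins had 42 FLI1 reads and a fold of 3.12, so none was FLI1-high. Tubb6, another widely made beta isoform (chr18:67550371-67562402, plus strand), had 287 FLI1, 16 RUNX1 and 59 input reads and a FLI1 fold of 1.68 (1.27 to 2.26). There the reads were gathered at 1 place: 113 of the 287 lay in the bin from 1600 to 2000 bp downstream of the TSS, in an intron, and the position most covered was at 1706 bp. This bin had a fold of 3.90, just under the limit of 4, and the weakest bin that passed, at Tuba1a, had 4.01. With the grid of bins moved by 200 bp the Tubb6 position had a fold of 4.18 and passed.

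**Figure D2:**
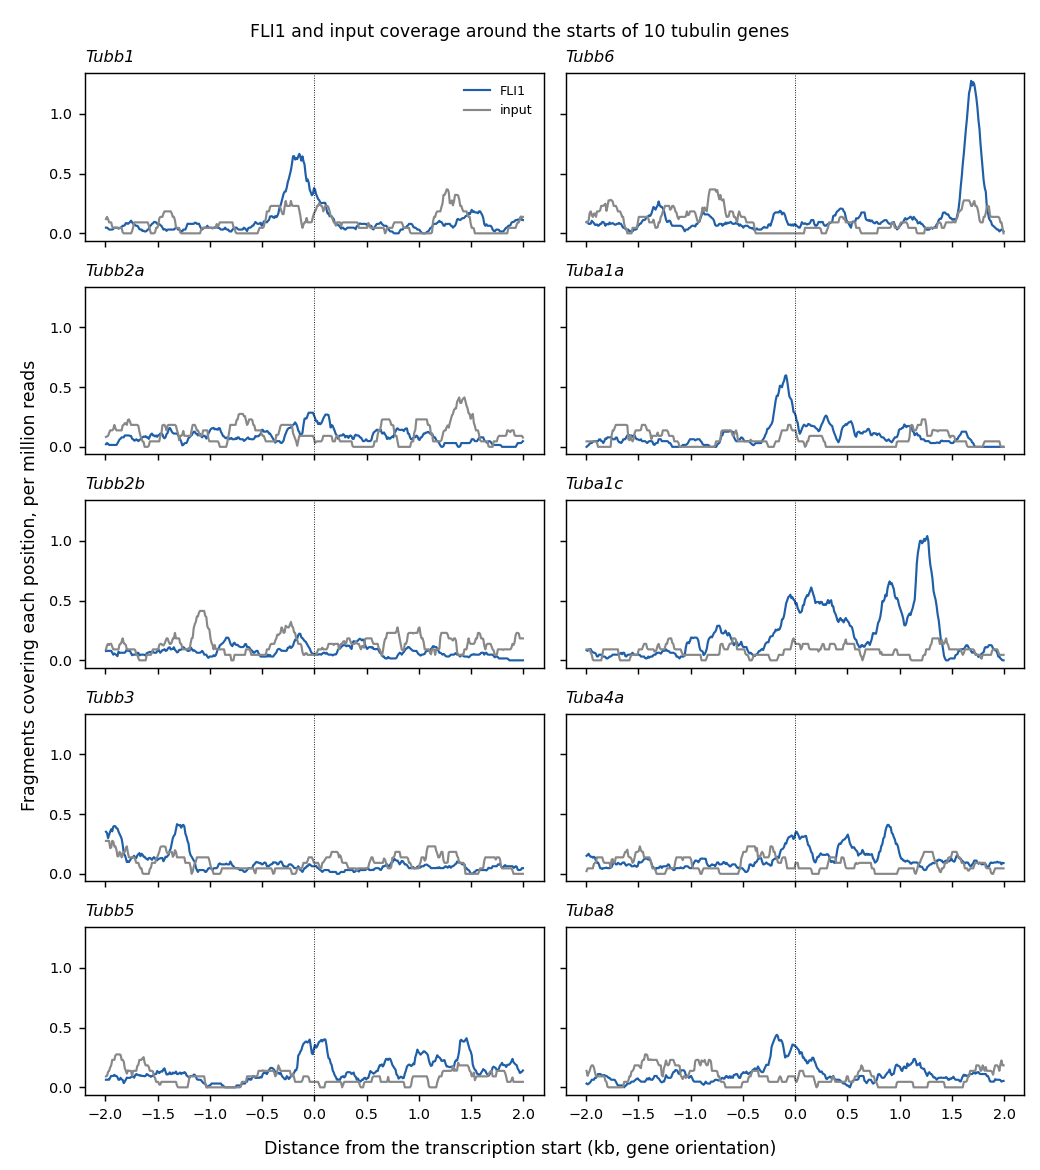
Coverage by FLI1 (blue) and input (grey) fragments, scaled to RPM, at each position from 2 kb upstream to 2 kb downstream of the start of each tubulin gene, in the orientation of the gene. The FLI1 line has a single summit just upstream of Tubb1 and Tuba1a, a summit at 1706 bp in Tubb6, several summits in Tuba1c and no summit of that height in Tubb2a or Tubb2b.

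Of the alpha isoforms, Tuba1a, prominent in developing neurons (chr15:98780272-98783982, minus strand), had 193 FLI1, 10 RUNX1 and 34 input reads, with a FLI1 fold of 1.96 (1.36 to 2.91). The bin just upstream of the Tuba1a TSS held 56 FLI1 and 4 input reads, a fold of 4.16, and was FLI1-high. The call is near the limit of 4: with read ends not moved to the fragment centre the bin had 51 FLI1 and 2 input reads and a fold of 3.79, and no bin of the Tuba1a territory was FLI1-high. The summit of this bin lay 95 bp upstream of the TSS, and the printed window has 1 GGAA core, within CAGGAAA, 28 bp from the summit. Over the Tuba1a gene body RUNX1 had a fold of 2.74 (1.14 to 6.12), from only 10 RUNX1 and 20 input reads, and on average 68.1% of the 50-base and 63.8% of the 34-base sequences of its bins were unique.

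Tuba1c, a broadly made alpha isoform (chr15:98860322-98868536, plus strand), had 464 FLI1, 9 RUNX1 and 42 input reads. Its FLI1 fold of 3.82 (2.78 to 5.37) was the highest of the 10 and higher than at 95.9% of all genes, whereas its RUNX1 fold was 1.17 (0.502 to 2.44). For the ratio of FLI1 to RUNX1 on the RPM scale, no share over all genes was computed. At the Tuba1c start that ratio was 3.25 (1.70 to 7.16), and Tuba1c was the only member of the 10 whose interval lay wholly above 1. Of its 5 FLI1-high bins 4 were in the start window, and they formed 3 positions together with the one further in. The first, 153 bp downstream of the Tuba1c TSS in the untranslated first exon, had 95 FLI1 and 6 input reads and an ETS sequence 16 bp away. The second, 1270 bp downstream in the first intron, had a best bin with 99 FLI1 and 2 input reads and a fold of 7.12. The third, 3785 bp downstream in the same intron, had 70 FLI1 and 5 input reads. RUNX1 had 1, 1 and 4 reads in those bins.

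The second Tuba1c position lies beside a run of GGAA repeats, which the printed window enters at its upstream edge. Counted on the plus strand, TTCC followed itself 11 times within a run of 48 bp, from 1210 to 1257 bp downstream of the TSS. A repeat can leave reads without a unique place, so the share of sequences without another exact match was counted. Of the 50-base sequences, 99.5% were unique in the bin with most reads, and 96.2% in the next bin, which holds the repeat and the summit. The run of 48 bp is shorter than these sequences, and near matches were not counted, so ambiguous placement of reads was not tested. Of the 34-base sequences, the length of the input reads, 99.5% and 92.25% were unique in these bins.

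Tuba1a and Tuba1c are 97.1% identical in coding sequence and lie on the same chromosome, and the FLI1 fold of Tuba1a was 0.514 times that of Tuba1c (0.309 to 0.861) in the 2-kb window. With 1 kb on either side the folds were close, 4.40 at Tuba1a and 4.70 at Tuba1c. Over the start windows of the 10 members, 95.7% to 100% of 50-base sequences were unique at the length of the ChIP reads, and 91.0% to 99.3% of 34-base sequences at that of the input reads.

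Tuba4a, an alpha isoform of platelets that lacks the usual encoded last tyrosine (chr1:75211549-75215828, minus strand), had 252 FLI1, 11 RUNX1 and 46 input reads and a FLI1 fold of 1.89 (1.38 to 2.65). The 4 bins from 400 bp upstream to 1200 bp downstream of its TSS held 36 to 41 FLI1 reads each, and the best had a fold of 3.05. Tuba8, the most divergent alpha isoform, which is also used in platelets (chr6:121160752-121176872, plus strand), had 227 FLI1, 15 RUNX1 and 49 input reads. Its FLI1 fold was 1.60 (1.17 to 2.23) and its RUNX1 fold 1.68 (0.872 to 3.04). The bin upstream of the Tuba8 TSS had 53 FLI1 and 4 input reads, a fold of 3.52, and its printed window, centred 174 bp upstream, holds both a RUNX and an ETS sequence. It held 0 RUNX1 reads.

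FLI1 within the body of Tuba8 was far higher than at its start. In the first intron, 4430 bp downstream of the TSS, neighbouring bins held 192 and 195 FLI1 reads beside 3 and 5 input reads, with folds of 13.8 and 13.5. RUNX1 had 10 and 5 reads in the same bins, with folds of 11.4 and 5.47. The 10 reads were the most in any bin of the 10 territories. The printed intron window has TGTGGT 32 bp from the FLI1 summit and a GGAA pair in tandem 14 bp from it. The RUNX1 summit of this position lay 4306 bp downstream of the TSS, and the window of 101 bp around it holds no RUNX sequence. Near the 3′ end, 15540 bp downstream of the Tuba8 TSS in the untranslated part of the fifth and last exon, another bin held 154 FLI1, 7 RUNX1 and 8 input reads, with folds of 6.65 for FLI1 and 4.79 for RUNX1. Over the whole gene body of Tuba8 the fold was 2.34 (2.01 to 2.73) for FLI1 and 1.66 (1.22 to 2.22) for RUNX1.

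**Figure D3:**
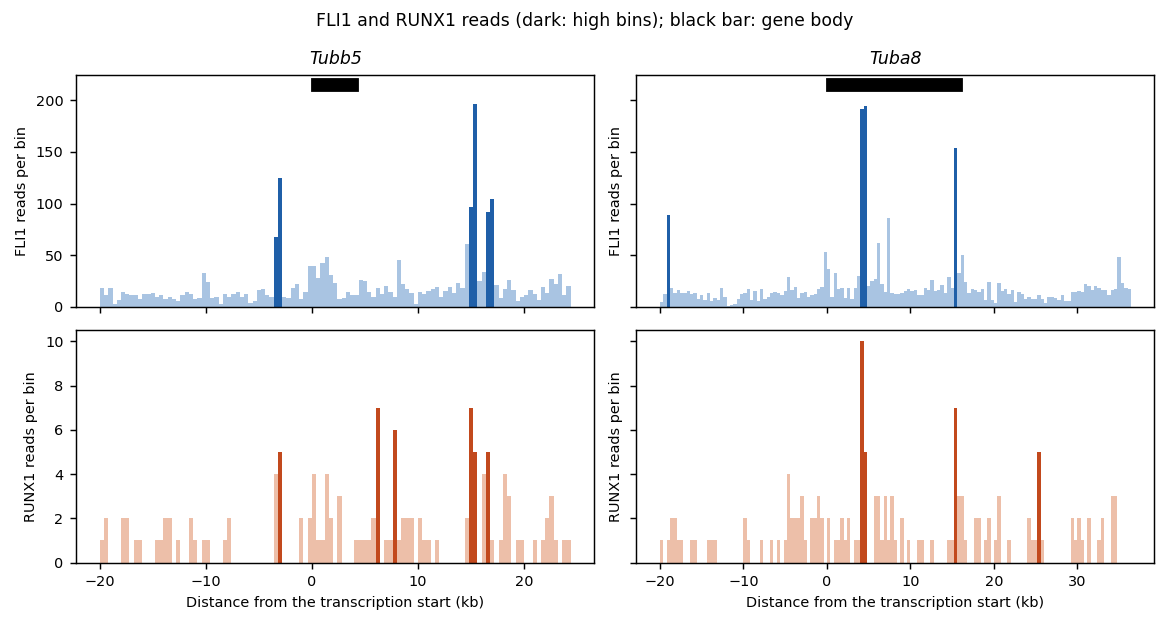
FLI1 (top) and RUNX1 (bottom) reads in each 400-bp bin of the Tubb5 and Tuba8 territories, by distance from the start in kb, with high bins dark and the gene body as a black bar. In Tuba8 the highest bin of either factor lies in the same pair of bins in the first intron, with 10 and 5 RUNX1 reads, and a bin in the last exon has 7. In Tubb5 the dark bins lie outside the gene body, and the FLI1 summits are 3023 bp upstream and 15218 and 17004 bp downstream of the start.

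Compared isoform against isoform, 25 of the 45 pairs of members had a ratio of FLI1 start folds whose counting interval excluded 1, and 9 of these involved Tuba1c, that is, every pair it was in. These ratios are for the 2-kb window and were not computed for 1 kb. The intervals were not adjusted for the number of pairs. For pairs of other genes no such share was computed, for either factor, so the counts of pairs have no background. Tubb1 had 1.65 times the fold of Tubb2a (1.05 to 2.58) and 2.27 times that of Tubb2b (1.46 to 3.54), but 0.408 times that of Tuba1c (0.255 to 0.655). Against the other 5 beta members pooled, the ratio of Tubb1 was 1.24 (0.873 to 1.78), so a difference from this pool was not detectable in the start window. The pool mixes members with lower folds than Tubb1 (Tubb2a, Tubb2b and Tubb3) and with higher ones (Tubb5 and Tubb6), and the interval leaves out their spread. The summed beta windows had 0.567 times the FLI1 fold of the summed alpha windows (0.461 to 0.695). This interval is for pooled reads and leaves out the spread between members, so it does not describe a class of isoforms. Single FLI1 folds ran from 0.686 to 2.23 among the beta and from 1.60 to 3.82 among the alpha members. For RUNX1 the ratio of summed beta to summed alpha windows had an interval from 0.546 to 1.30, and 0 of the 45 pairs had an interval that excluded 1. Ordered by FLI1 fold the members ran Tuba1c, Tubb5, Tuba1a, Tuba4a, Tubb6, Tuba8, Tubb1, Tubb3, Tubb2a and Tubb2b, and Tuba1c and Tubb5 were the only neighbours in this order whose interval excluded 1 (0.585, 0.365 to 0.937, for Tubb5 over Tuba1c).

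**Figure D4:**
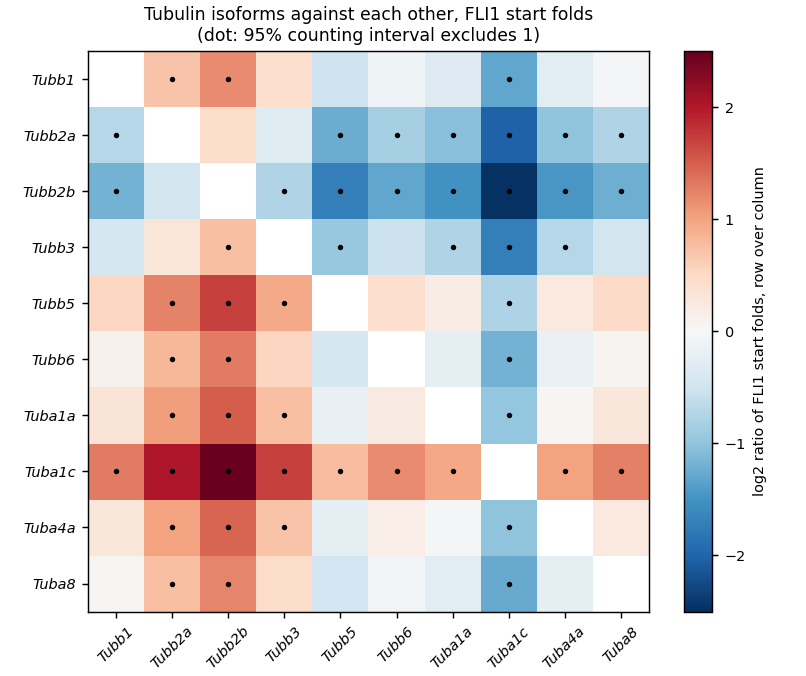
Log2 ratio of the FLI1 start fold of the gene in each row over that in each column, with red for higher and blue for lower. A dot marks the pairs whose 95% counting interval excludes 1. The Tuba1c row is red and dotted throughout, and the Tubb2b row is blue throughout, with a dot against every member but Tubb2a.

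Bins resolve narrow sites that a window of 4000 bp dilutes. A FLI1-high bin lay in the start window of 2 of 10 members, Tuba1a and Tuba1c, against 25.9% of all genes, and a RUNX1-high bin (at least 4 times the expected number and at least 5 reads) in 0 of 10, against 11.6%. In the territories, 6 of 10 members had a FLI1-high bin, against 51.1% of all genes, and 4 of 10 had a RUNX1-high bin, against 46.3%. Tubb2a, Tubb2b, Tubb3 and Tubb6 had neither, although each gained a high bin of 1 factor or the other under some of the alternatives listed below. By bins, 23 of 1189 (1.93%) were FLI1-high and 13 (1.09%) RUNX1-high, beside 0.566% and 0.382% of the 4789763 bins of all territories, in which bins near several genes count more than once. The territories of the members are shorter than those of all genes on average, so these shares are not matched for length. Counted by territory, there were 23 and 13 high bins in 10 territories, beside 27114 and 18276 in 22367. The 23 bins were 2 at Tubb1, 6 at Tubb5, 2 at Tuba1a, 5 at Tuba1c, 4 at Tuba4a and 4 at Tuba8. Of these, 7 bins were high for both factors, 4 at Tubb5, where they lay at the starts of neighbours, and 3 at Tuba8. An all-gene share of such bins is not given, so this count has no background.

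**Figure D5:**
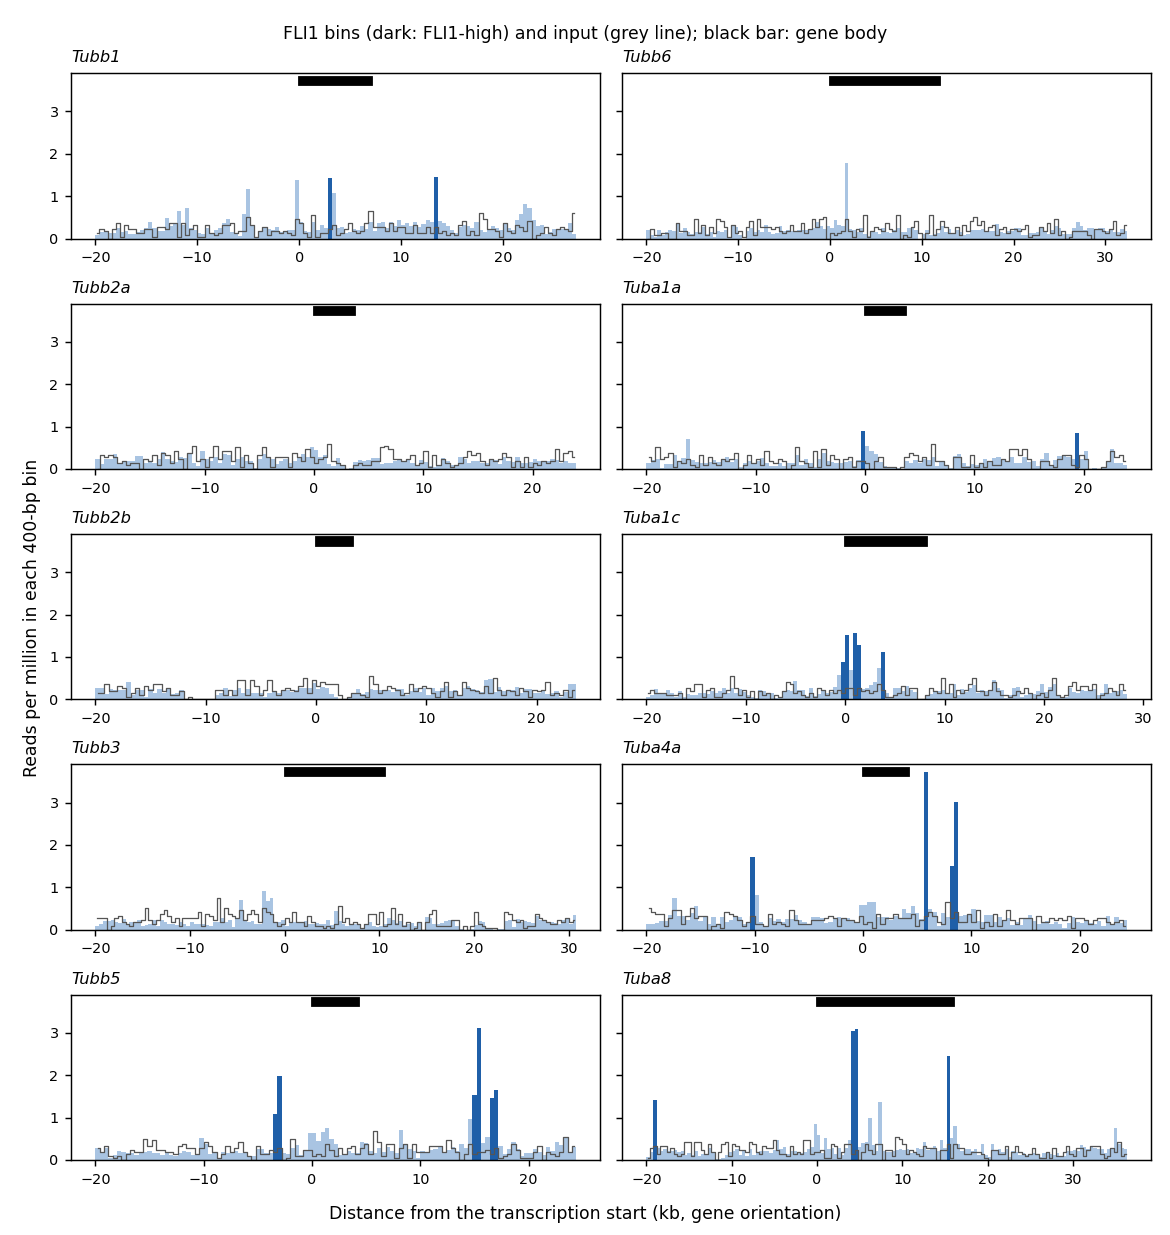
FLI1 RPM in each 400-bp bin (bars, dark where FLI1-high) and input RPM (grey line) from 20 kb upstream of the start to 20 kb downstream of the end of each tubulin gene, whose body is the black bar. Dark bars lie over the gene body in Tubb1, Tuba1c and Tuba8, outside it in Tubb5 and Tuba4a, and are absent from Tubb2a, Tubb2b, Tubb3 and Tubb6.

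Many of these bins belonged to neighbours by distance. Joined where adjacent, the 23 bins formed 16 FLI1 positions, of which 7 had the tubulin gene itself as nearest protein-coding TSS and 9 another gene. For the territories of all genes no such share was computed, for either factor, so these counts have no background. All 3 FLI1 positions of Tubb5 lay at the starts of neighbours. The strongest, 15218 bp downstream of the Tubb5 TSS and 142 bp before the start of Flot1, a membrane scaffold gene, had 196 FLI1, 5 RUNX1 and 4 input reads in its best bin, a FLI1 fold of 14.1. Beside Tubb5 the others were 186 bp before the start of Mdc1, a DNA-damage checkpoint gene, with 125 FLI1 reads, and 382 bp before that of Ier3, an immediate early gene, with 92. For Tuba4a, none was nearest to the gene itself. The bin with most FLI1 reads of all, 234 beside 7 input reads, lay 5889 bp downstream of the Tuba4a TSS in an intron of Stk16, a protein kinase gene, and a second, with 189 reads, covered the Stk16 start. The remaining Tuba4a position, 10118 bp upstream with 108 FLI1 reads, was nearest to Dnajb2, a co-chaperone gene. The Tuba1a position 19533 bp downstream lay in an intron of Tuba1b, another alpha-tubulin gene, with 54 FLI1 reads. The most upstream bin of Tuba8, with 89 FLI1 reads, was in an intron of Pex26, a peroxisome import gene.

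RUNX1-high bins were resolved by few reads. The 13 bins formed 11 positions, each with a best bin of 5 to 10 RUNX1 reads, and 4 of the positions had a tubulin gene as nearest TSS. Pairs of RUNX1 reads that could be both ends of 1 fragment would not be independent. With 1 read of each such pair left out, an alternative added after seeing the data, the RUNX1-high bins numbered 1 in place of 2 at Tubb1, 3 in place of 6 at Tubb5, 0 in place of 1 at Tuba4a and 2 in place of 4 at Tuba8, so 3 of 10 members had one, against 24.8% of all genes under the same removal. At Tubb5 a RUNX1 position with 7 reads and a fold of 8.24 lay 15199 bp downstream of the TSS, beside the FLI1 summit before Flot1. Others had little FLI1, such as those 9776 bp downstream of Tubb1, with 6 RUNX1 and 27 FLI1 reads, and 7771 bp downstream of Tubb5, with 6 RUNX1 and 10 FLI1 reads. Positions with 5 RUNX1 reads lay 19010 bp downstream of the Tubb1 TSS, nearest to Slmo2, 3870 bp downstream of that of Tuba4a, and 25539 bp downstream of that of Tuba8, nearest to Usp18. At Tubb5 such positions lay 3189 bp upstream of the TSS, beside the Mdc1 start, and 16505 bp downstream, beside the Ier3 start. Their bins held 125 and 92 FLI1 reads. When at least 7 RUNX1 reads were asked for, a limit chosen after seeing the data, 2 of the 10 members had a RUNX1-high bin in the territory, against 10% of all genes.

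The windows of 101 bp around the positions were searched for the factors' sequences. Of the 16 FLI1 windows, 8 (50%) held at least 1 of the 4 ETS sequences, beside 7.86% of 223633 windows of the same length at bin centres in the start windows of all genes. All 16 held a GGAA core, as did 65.8% of those windows, and 4 (25%) held a RUNX sequence, beside 8.11%. At the RUNX1 positions, 1 of 11 windows held a RUNX sequence, the one 15199 bp downstream of the Tubb5 TSS. The comparison windows were not chosen for coverage, so these shares are a description. The start of Tubb1 also differed from the others in base composition: over the 1 kb centred on the start its observed CpG count was 0.222 of that expected, lower than in the other 9 members (0.438 to 0.744), beside a median of 0.549 over all genes.

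Over whole gene bodies the order changed. The FLI1 fold was 2.74 at Tuba1c, 2.34 at Tuba8, 1.95 at Tubb5, 1.75 at Tuba1a, 1.71 at Tuba4a and 1.50 at Tubb1, each above 92.1% or more of 20822 genes, beside a median of 0.937. It was 1.12 at Tubb6, 0.962 at Tubb2a, 0.742 at Tubb3 and 0.538 at Tubb2b. Short genes consist largely of their start, so a gene body value of a short member is not independent of its start window. Unique 50-base sequences made up on average 68.1% of the gene body bins of Tuba1a, 70.5% of those of Tubb2b, 75.8% of those of Tubb2a and 82.5% of those of Tuba1c, and 93.5% or more in the other members, so gene body counts of these 4 rest on part of the gene. Over the territories Tubb5 (1.56), Tuba8 (1.46), Tuba4a (1.44) and Tubb1 (1.42) were above 96.5% or more of genes, and at Tubb5, Tuba4a and Tubb1 this includes FLI1-high bins at the starts of neighbours.

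The calls at the starts depended on the width of the window. With 1 kb on either side in place of 2 kb, FLI1 reached a fold of 2 at 5 of 10 members, against 37.3% of all genes: Tuba1c (4.70), Tuba1a (4.40), Tubb5 (3.16), Tuba4a (2.87) and Tuba8 (2.12). Tubb2a then had 1.63, above Tubb3 (0.95) and Tubb2b (0.883). RUNX1 then reached it at 2, Tuba1a (3.48) and Tubb5 (3.28), against 29% of all genes. FLI1-high bins were found in the start windows of 5 members with the grid moved by 200 bp (Tubb5, Tubb6, Tuba1a, Tuba1c and Tuba8, against 27.5% of genes). With a bin limit of 3 in place of 4 they were found in 7, against 33.5%, the additional members being Tubb1, Tubb5, Tubb6, Tuba4a and Tuba8. With the genome-wide rate alone as expectation they were found in 4 (Tubb1, Tubb6, Tuba1a and Tuba1c, against 30.1%). Tubb2a, Tubb2b and Tubb3 had none under any of these changes.

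The wider machinery of tubulin was examined through 50 genes in 4 lists, with 17 (against 25.5% of all genes) at a FLI1 start fold of 2 or more. Folding and assembly genes, which encode the tubulin cofactors, prefoldin and the CCT chaperonin, were at or above 2 in 10 of 17, with a median of 2.33. Other tubulins were in 2 of 10 (Tubb4b at 3.23 and Tubg1 at 2.03), with a median of 1.15. Genes of the gamma-tubulin ring, which nucleates microtubules, were in 2 of 7, with a median of 1.97, and genes for microtubule binding and modification in 3 of 16, with a median of 1.57. The 3 highest folds of all lists were those of Cct2, a chaperonin subunit (5.31, 3.34 to 8.95), Clasp1, which stabilizes microtubule plus ends (4.01, 2.82 to 5.88), and Tubgcp4, a gamma-ring subunit (3.83, 2.58 to 5.90). The 3 lowest were Tubg2 (0.772), Tuba3a (0.817) and Tubb4a (0.844). RUNX1 reached a fold of 2 at 9 of the 50, a share near the 16.8% of all genes, and of these Cct2 had the most reads among chaperonin genes, 24 beside 19 input reads.

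According to the methods, micrococcal nuclease cut the input chromatin and sonication the precipitated chromatin, while the labels mention only sonication. The bearing of this on the folds was not tested.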

How the data were processed

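ChIP-seq of FLI1, RUNX1 and input in mature MK gave 1 library each. Alignment to mm9 was made by the authors with Bowtie (version not given in the sources used here). Reads with a unique place were kept, without redundant ones, and their coordinates with strand were deposited. These are positions and not a normalized unit, so every count was made here. Files of peaks or signal were not used here. The submitters' processing notes also name SICER 1.1 and MACS 1.4. ChIP reads were 50 bases and input reads 34 bases long. ChIP files held no repeated position, and 3.24% of input reads, which repeated one, were left out. Reads were moved to the centres of fragments, whose estimated lengths were 126 bp for FLI1, 159 bp for RUNX1 and 158 bp for input. Libraries were scaled to RPM. Python 3.11.15, numpy 2.4.6, scipy 1.17.1, pysam 0.24.0 and Biopython 1.88 were used. The fold and its interval were tried on simulated Poisson counts, which hold counting error only and so cannot show other errors.

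All members were named, with the genes nearest to their high bins and the 3 highest and lowest folds of the microtubule lists. Members and lists were chosen with earlier results of these data known. Annotated starts were compared with the RefSeq starts used here, which matched 8 of the 10 members, and all 8 lay within 129 bp. Alternatives were another fragment length, scaling to background bins (1.02 times the FLI1 and 1.15 times the RUNX1 depth scale), other windows, limits, grids and flanks, thinned FLI1 reads, repeated input positions kept, other transcript starts, no input and no filter on low input. One marker gene of the MK list is not reported here.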

Additional observations from a re-analysis of the deposited data

How the results depend on the processing

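The window, the limits and the bin grid moved the counts of members, and the cause was not tested. With 1 kb in place of 2 kb, a fold of 2 was reached by 5 members for FLI1 and 2 for RUNX1, and the median FLI1 fold was 2.02. With a fold limit of 1.5 the counts were 7 and 3 members, and with a limit of 3 FLI1 had 1. A bin limit of 3 gave FLI1-high bins at 7 starts (33.5% of all genes) and 37 bins in all (0.877% of all bins of territories). A limit of 6 gave 1 start (15.5% of genes), 11 bins (0.275% of bins) and 2 territories with a RUNX1-high bin (16.6% of genes). FLI1-high starts numbered 4 without input and 5 with the grid moved by 200 bp. Flanks of 50 kb gave 39 FLI1-high bins, in 8 of 10 territories against 63.8% of genes. RUNX1-high starts numbered 1 with read ends not moved (10.7% of genes) and 1 with fragments of 150 bp (11.7%). Asking for at least 7 RUNX1 reads, chosen after seeing the data, left 2 territories (10% of genes).

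Thinning FLI1 to the RUNX1 depth gave 4 members at a fold of 2 (26.6% of all genes under the same thinning), 5 FLI1-high starts under the RUNX1 read minimum (24.4%), a median fold of 1.50 (1.28 over all genes) and a ratio of Tubb1 to the other beta members of 1.78. The thinning was a single random draw, so the spread between draws is not known. In this draw Tubb1 had a fold of 2.33 and Tubb6 of 0.742, against 1.56 and 1.68 with all reads. Single-gene RUNX1 folds of about this size were thus treated as not resolved. Over the alternatives run, 68 values of the summary results stayed within 1.5 times the count, or within the spread, and the 21 given above did not. For single-gene folds and bin counts 315 stayed within that range or their counting interval and 65 did not. The input rate of the territory and the removal of 1 read of each possible RUNX1 end pair (7.91% of reads) were added after seeing the data. No paired analysis was possible because each antibody has 1 library, and none could be left out in turn.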
